A study of Caenorhabditis elegans with 83 samples.

Results

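The sites described here are PQN-85 ChIP-seq peaks of Caenorhabditis elegans strain HW04 that were still called after 1 h of auxin. They were chosen by a rule on peak calls: a peak of the first library without auxin was kept where a peak of the second library without auxin and of both auxin libraries overlapped it by at least 1 bp. Of the 6553 peaks in that first list, 1007 (15.4%) met the rule and 5546 did not. The former are called kept sites and the latter other peaks. The kept sites covered 1005 kb and the other peaks 3022 kb. Because the rule used the 4 PQN-85 lists of HW04, the presence, width and enrichment of the sites in those lists are given as a description, with no test.

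PQN-85 (also called SCC-2) is the worm NIPBL-type protein, which loads the cohesin ring onto chromosomes. SMC-3 is a core subunit of that ring, and the ring holds or extrudes loops of DNA. H4K20me1 is a histone mark that is enriched on the X chromosomes of hermaphrodites, where the dosage compensation complex, a relative of cohesin, lowers transcription. ChIP-seq counts DNA fragments that come down with an antibody, and a peak is a stretch where they exceed the input.

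The series holds 83 samples of whole worms, grown from starved L1 larvae for 24 h at 22 °C and labelled L3. HW04 worms either had no auxin or spent 1 h on 1 mM auxin, with 2 libraries per condition for each of PQN-85, SMC-3 and H4K20me1. Which protein carries the degron tag in HW04 is not stated in the sources used here. The peak sets of the other strains used here came from worms with 1 h of auxin. CA1200 was the control, SMC-3 was depleted in JK05, and JK06 served for depletion of WAPL-1, the factor that takes cohesin off DNA. Each of these 3 strains had 1 peak set per antibody that the authors combined over libraries, so comparisons with them have no replicate error, and the strains were not compared with their own untreated worms. JK06 also had SMC-3 lists of single libraries (replicates 3 and 4). RNA-seq followed 4 h of 1 mM auxin, with 2 libraries per strain. Nothing in the labels says whether replicates came from separate cultures, so p-values measure the spread between these libraries. In whole worms, fewer cells with a site and less protein at it per cell cannot be told apart.

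The 4 PQN-85 lists differed in length, from 12367 peaks in replicate 2 without auxin to 1296 in auxin replicate 2, with 6553 and 4070 in the first library of each condition. Read depth is not in the files and is unknown. Of the 6553 peaks, 92.3% were overlapped in the other library without auxin, 47.2% in auxin replicate 1 and 16.3% in auxin replicate 2, so auxin replicate 2 set most of the limit on membership. The kept sites took up 83.0% of the peaks of that shortest list, 27.7% of auxin replicate 1 and 8.91% of replicate 2 without auxin. Without auxin replicate 2 the rule kept 3010 sites. In the 4 SMC-3 lists of HW04, the auxin condition written in the names of the peaks is the reverse of the label. Those of the 2 libraries labelled no auxin name 1 and the same extract (784), which was also the extract of PQN-85 auxin replicate 1. The inputs that they name differ and are those of PQN-85 auxin replicates 1 and 2. The peak names thus do not settle whether these 2 libraries came from 1 extract. The SMC-3 libraries labelled auxin name extracts 782 and 783, those of the PQN-85 libraries without auxin. The peak names of the HW04 PQN-85 and H4K20me1 lists state the same condition as their labels. The H4K20me1 libraries without auxin also name extracts 782 and 783. Labels and peak names thus conflict for SMC-3 alone, and which of them is right was not settled here. The SMC-3 libraries are called by their label throughout, and any direction with auxin given for them reverses under the peak names.

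The kept sites were wider and higher than the other peaks in the list that they were drawn from. Their median width was 682 bp (range 292 to 9646) against 451 bp, and 89 of them (8.84%) against 54 other peaks (0.974%) reached 2 kb. Their median fold enrichment over input, the authors' own value at each summit, was 3.18 against 2.12. In the other lists the matching peaks had a median fold of 4.32 in replicate 2 without auxin, 3.23 in auxin replicate 1 and 2.13 in auxin replicate 2, and the median widths were 739, 571 and 429 bp. Not every kept site was high. Of the 1007, 421 lay in the top 10% of the first list by fold, and 159 lay below that list's median. Summits lay close together, with median distances of 26, 28 and 27 bp from the first library in the 3 other lists. Other peaks with a match had 35, 35 and 80 bp, the last over 61 peaks. Since a match needs overlap, short distances are partly built in. At the edge of the rule, the smallest shared overlap was 73 bp, at a site on chromosome V from 18057098 to 18057844 with a fold of 1.71. Just outside it, a peak on chromosome III from 13585065 to 13585543 with a fold of 1.60 was in 3 lists and missed the remaining one by 8 bp. Coordinates are those of the HW04 lists, for which no genome build is stated.

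The site with the highest mean fold over the 4 lists lay on X from 16056147 to 16056865, between genes, with its summit 2521 bp downstream of the nearest start, that of T27A8.2. Its fold was 9.11 and 10.1 without auxin and 10.6 and 4.71 with auxin. The groups overlap, with auxin replicate 1 the highest and auxin replicate 2 the lowest. Next came a site on X from 1626768 to 1627530, 3462 bp upstream of ZK380.2, with folds of 10.8 and 8.41 without auxin and 8.82 and 6.03 with auxin. Of the 10 sites with the highest mean fold (7.90 to 8.62), 6 lay on X and 3 lay within the body of pqn-41 on chromosome III, a gene for a protein with a glutamine-rich region. All 10 were overlapped by every HW04 SMC-3 list. Their ratio of mean fold with auxin to mean fold without ran from 0.738 to 1.05.

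The pqn-41 sites belonged to a row of 5 kept sites from 1920697 to 1927435 on III. The highest of them, from 1925994 to 1927435, had folds of 9.64 and 9.62 without auxin and 9.82 and 4.40 with auxin. Its neighbour from 1923090 to 1924178 had 10.2 and 6.98 without auxin and 8.91 and 6.57 with auxin. The groups overlap at both. Such rows were counted for kept sites alone, with no share for other peaks. With a gap under 2 kb counted as 1 row, 268 of the 1007 fell into 110 rows of 2 or more. The longest held 7 sites from 6238279 to 6247809 on chromosome V around dmd-7, a gene of the doublesex-type transcription factors. Another held 6 between genes on X from 13348202 to 13359091 near mxl-3, a transcription factor gene of the Max-like family. Rows of 4 lay, among other places, in zfp-1 and hlh-30, which encode a chromatin-associated zinc finger protein and the worm TFEB-type transcription factor.

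The only one of the 10 highest within 500 bp of a gene start was on V from 11887744 to 11888523. Its summit lay 84 bp upstream of adh-1, which encodes an alcohol dehydrogenase. Its fold was 9.24 and 8.31 without auxin and 8.58 and 5.93 with auxin. The highest sites of the remaining chromosomes were on I upstream of T20F10.5 (mean fold 5.91), on II 2555 bp upstream of nhr-88, a nuclear hormone receptor gene (6.78), and on IV 7387 bp upstream of znf-782, a zinc finger gene (6.72). The site at T20F10.5, 3651 bp wide from 10302431 to 10306081, had no SMC-3 peak in either library labelled no auxin and folds of 2.19 and 1.61 in those labelled auxin. The sites on II and IV were overlapped in every HW04 SMC-3 list.

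The 5 widest kept sites spanned 8085 to 9646 bp. The widest, on II from 10541699 to 10551344, had its summit inside mnk-1, the gene of a MAP-kinase-interacting kinase, and folds of 4.37 and 4.85 without auxin and 3.00 and 2.02 with auxin. The next, on V from 6222106 to 6231236 inside W06H8.6, had 6.66 and 7.33 without auxin and 5.25 and 2.77 with auxin. At both, each auxin library was lower than each library without auxin. The widest sites were not uniformly high: one of 8085 bp on V from 7916934 to 7925018 had folds between 1.80 and 2.32 in the 4 libraries. Of the 89 sites of at least 2 kb, 70 were overlapped in all 4 HW04 SMC-3 lists.

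**Figure D1:**
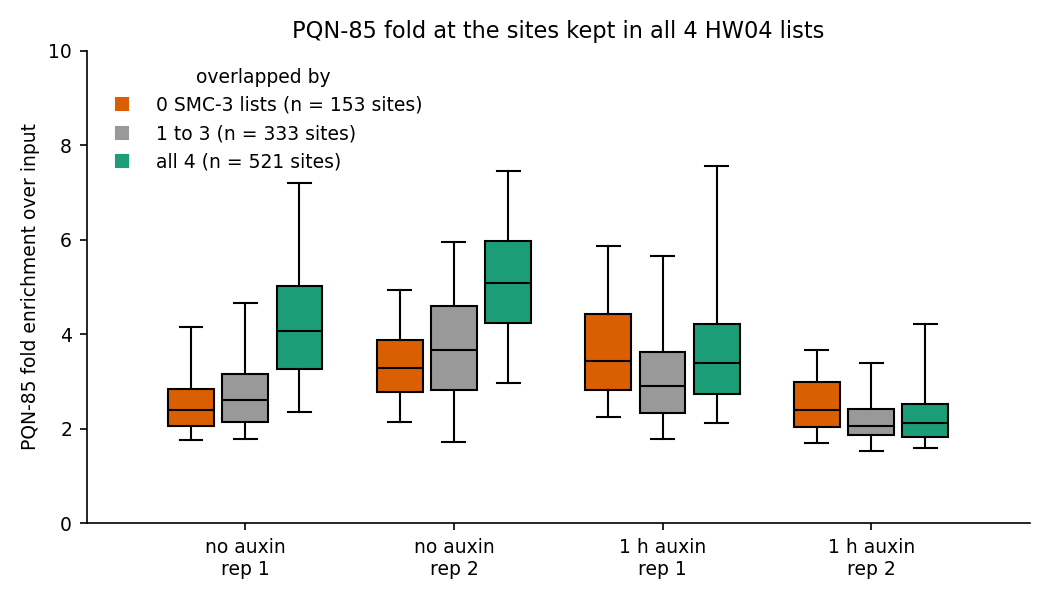
PQN-85 fold enrichment over input (y axis) at the 1007 kept sites in each HW04 PQN-85 library (x axis), split by how many of the 4 HW04 SMC-3 lists overlap the site. Boxes give quartiles with the median line and whiskers the 5th to 95th percentile. Sites in all 4 SMC-3 lists have the highest median without auxin (4.06 and 5.09), and with auxin their medians (3.39 and 2.11) lie near or below those of the sites in no SMC-3 list (3.44 and 2.39).

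PQN-85 height at the kept sites, and the part of it left with auxin, differed with the number of SMC-3 lists at the site. All 4 HW04 SMC-3 lists overlapped 521 kept sites (51.7%), 1 to 3 lists overlapped 333 (33.1%), and 153 (15.2%) had none. Median width was 842 bp at sites in all 4 lists and 424 bp at sites in none, and 1 bp overlap favours wide sites. Median PQN-85 folds at the former were 4.06 and 5.09 without auxin and 3.39 and 2.11 with auxin. At the latter they were 2.39 and 3.27 without auxin and 3.44 and 2.39 with auxin. The sites in all 4 lists thus had the higher median in both libraries without auxin and the lower one in both auxin libraries.

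The ratio of mean PQN-85 fold with auxin to mean fold without had a median of 0.746 over all kept sites (range 0.333 to 1.77) and was above 1 at 177 (17.6%). Its median was lower the more SMC-3 lists overlapped the site, from 1.03 at sites in none to 0.883, 0.849, 0.793 and 0.634 at sites in 1, 2, 3 and 4. Other peaks stepped down in the same order. These were other peaks in the second library without auxin and in 1 of the auxin lists. Medians were 0.952 at peaks in no SMC-3 list and 0.894, 0.824, 0.755 and 0.694 at peaks in 1, 2, 3 and 4. Their auxin value was the fold in that 1 list, mostly auxin replicate 1, so the sizes do not compare with those of kept sites. For auxin replicate 1 over the first library without auxin, medians at other peaks fell from 1.06 in no SMC-3 list to 0.791 in all 4. The order is thus not particular to kept sites. Of the 177 kept sites above 1, 86 had no SMC-3 list and 19 had all 4. The size of the ratio depended on the libraries: its median was 1.00 for auxin replicate 1 over the first library without auxin, and 0.528 for auxin replicate 2 over the second. The order by number of SMC-3 lists was the same in all 4 auxin over no auxin pairs, with 1.38 against 0.867 at sites in none and in all for the pair of first libraries and 0.775 against 0.444 for the pair of second libraries. It was also the same within high and low peaks. Among kept sites at or above the median fold of 3.18, sites in no SMC-3 list had a median ratio of 0.937 (21 sites) and sites in all 4 had 0.617 (402 sites). Below that fold the medians were 1.04 (132 sites) and 0.702 (119 sites). These ratios use the lists that chose the sites. A site low without auxin was kept only if both auxin lists called it, so the rule itself can raise ratios at low sites. The other peaks compared here also needed a call in 1 of the auxin lists. The part of this filter in the order was not tested. The SMC-3 and PQN-85 libraries also share extracts and inputs by their peak names, so no test is given.

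**Figure D2:**
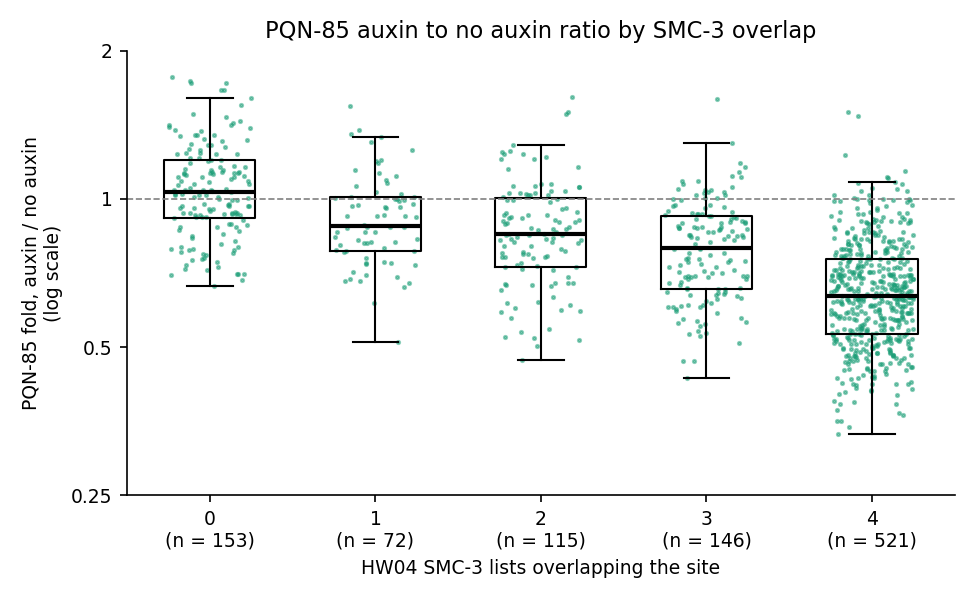
Ratio of mean PQN-85 fold with auxin to mean fold without (y axis, log scale) for each kept site, by the number of HW04 SMC-3 lists overlapping it (x axis). Points are sites, boxes are quartiles with the median, whiskers reach 1.5 times the box, and the dashed line is a ratio of 1. Medians step down from 1.03 with no SMC-3 list to 0.634 with all 4.

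The 5 sites with the largest ratios (1.66 to 1.77) had no peak in any HW04 SMC-3 list, and the 5 with the smallest (0.333 to 0.365) had one in all 4. The largest was on III from 5089537 to 5089833, 4416 bp upstream of cah-1, a gene of the carbonic anhydrase family. Its fold was 1.98 and 2.36 without auxin and 4.19 and 3.48 with auxin, and the groups do not overlap. A site on V from 7415712 to 7416178, 160 bp upstream of F18E3.13, had 2.39 and 4.54 without auxin against 7.73 and 4.32 with it, and there the groups overlap. The others of the 5 lay at the start of K08H2.7, 398 bp upstream of F45D3.4 and 3515 bp upstream of nhr-4. At the low end, a site of 2468 bp on II from 2975501 to 2977968, with its summit 137 bp into nhr-88, had folds of 2.97 and 8.79 without auxin and 2.23 and 1.68 with auxin. A site on IV from 1658653 to 1659533, 99 bp upstream of rps-28, a small ribosomal subunit gene, had 5.34 and 5.37 without auxin and 2.27 and 1.52 with auxin. The sites at pck-1 (a PEP carboxykinase gene), C34B4.2 and unc-64 (the syntaxin of synaptic vesicle release) had ratios of 0.344, 0.353 and 0.365. At these 5 each auxin library was below each library without auxin.

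Kept sites without SMC-3 included high PQN-85 peaks. The highest, on IV from 9867751 to 9868430, lay 3021 bp from the start of K07F5.15 and had folds of 6.12 and 5.25 without auxin and 9.19 and 5.43 with auxin. A site on II from 12625564 to 12626026, 1308 bp upstream of Y38E10A.14, had 5.11 and 5.90 without auxin and 6.78 and 5.41 with auxin. The groups overlap at both. In the combined PQN-85 sets the first had folds of 8.26 in CA1200, 11.3 in JK05 and 7.34 in JK06, while none of the combined SMC-3 sets had a peak there. A site 175 bp upstream of meg-3, a gene for a germ granule protein, on X from 1989483 to 1990038, had 4.92, 5.87, 6.81 and 3.63 in HW04 and no peak in any combined set of either antibody.

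SMC-3 peaks overlapped kept sites more often than other peaks in each of the 6 single SMC-3 libraries. With both groups split at a PQN-85 fold of 3.18, the mean difference was below 0 on each side, though not in every library. A single cut does not match heights within a side. In the libraries labelled no auxin, 60.6% and 62.4% of kept sites had an SMC-3 peak, against 47.0% and 45.7% of other peaks. In those labelled auxin the shares were 77.0% and 80.5% against 73.7% and 78.7%. In JK06 replicates 3 and 4 they were 79.4% and 70.2% against 63.6% and 54.7%. The difference was 11.1 ± 6.73 percentage points (SD over 6 libraries) and was positive in 6 of 6 (two-sided exact sign-flip permutation test, p = 0.03125, the smallest that 6 libraries allow). It was 3.27 and 1.81 points in the libraries labelled auxin and 13.6 to 16.6 points in the 4 others. Kept sites were wider, and 1 bp overlap favours wide sites. With at least 50% of each site covered, the mean difference was 6.60 points, still positive in 6 of 6. It was then 1.69 and 0.113 points in the libraries labelled auxin. By their peak names the 4 HW04 SMC-3 lists share extracts and inputs with the PQN-85 lists that chose the sites. All 6 libraries were also scored over the same sites, so the p-value covers the spread between libraries and not a new draw of sites. The 2 libraries labelled no auxin name the same extract, and with these averaged the difference was 10.3 points with exact p = 0.0625, the smallest that 5 values allow, which does not pass 0.05. With kept sites and other peaks both limited to a fold of at least 3.18 the difference was -2.30 points, positive in 2 of 6 libraries (exact p = 0.125), and with both below that fold it was -4.77 points, positive in 1 of 6 (exact p = 0.15625). These 2 comparisons by height were chosen after seeing the data. With the sites chosen without auxin replicate 2, the difference over all heights was 23.0 points.

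**Figure D3:**
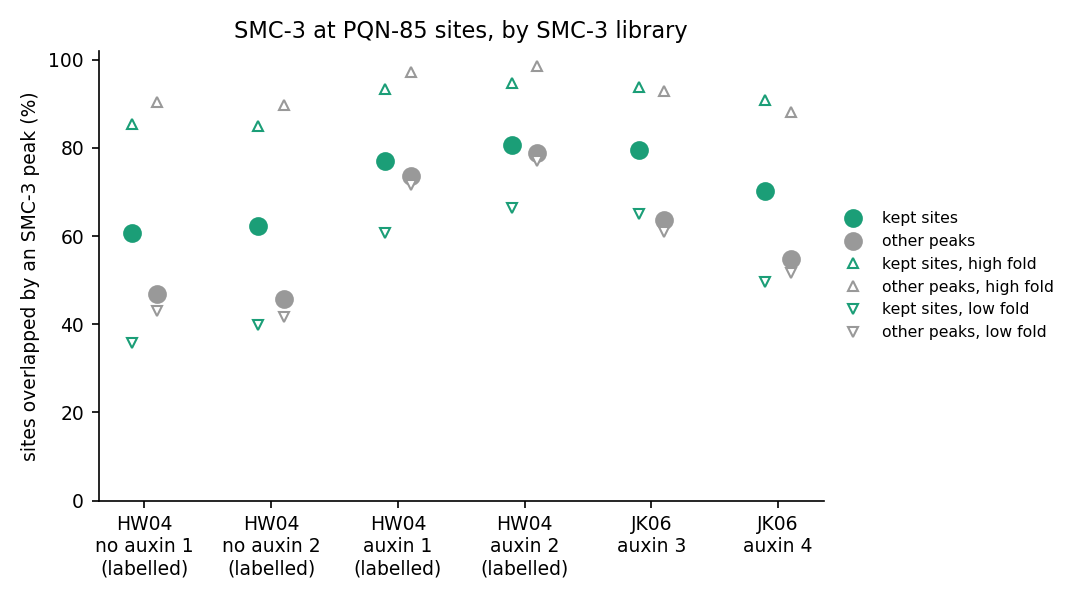
Share of PQN-85 sites overlapped by an SMC-3 peak (y axis, percent) in each single SMC-3 library (x axis). Filled circles are all kept sites (1007, green) and all other peaks (5546, grey), and open triangles pointing up and down are sites at or above and below a PQN-85 fold of 3.18. The circles of kept sites lie above those of other peaks in 6 of 6 libraries, while the high-fold triangles of other peaks lie above those of kept sites in the 4 HW04 libraries.

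The libraries labelled auxin covered more kept sites with SMC-3 than those labelled no auxin. The mean share was 78.7% ± 2.53 (SD, n = 2) against 61.5% ± 1.26 (SD, n = 2), a difference of 17.3 points whose groups do not overlap (two-sided exact permutation test, p = 0.333, the smallest that 2 against 2 allow). Read by the condition in the peak names, the same libraries give -17.3 points. At other peaks the difference by label was 29.9 points (exact p = 0.333). The lists labelled auxin were also longer, with 7457 and 8196 peaks against 4305 and 4091, and the part of list length in these shares was not tested.

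In the other strains most kept sites carried PQN-85. The combined PQN-85 set of JK06 overlapped 95.9% of kept sites and 72.6% of other peaks. That of JK05, in which SMC-3 is depleted, overlapped 83.8% and 57.7%, and that of CA1200 74.0% and 61.3%. At a fold of at least 3.18 kept sites and other peaks were close or reversed, with 99.8% and 99.6% in JK06, 96.2% and 97.4% in JK05, and 84.7% and 89.2% in CA1200. Below that fold the shares were 92.0% and 70.2% in JK06, 71.4% and 54.1% in JK05, and 63.2% and 58.7% in CA1200. All 3 sets overlapped 727 kept sites and none overlapped 33. The CA1200 set lacked many high peaks on V and X, described next, and whether it is complete there was not tested, so its shares and the count of 727 may be too low. The sites without HW04 SMC-3 were as frequent in these sets as the kept sites at large: 94.1% in JK06, 84.3% in JK05 and 71.2% in CA1200. Among other peaks without HW04 SMC-3 the shares were 44.5%, 28.3% and 30.9%. Those other peaks were lower, with a median fold of 1.92 against 2.39 in the first library. Kept sites were also chosen for repeated PQN-85 calls, which itself favours calls in further PQN-85 sets. This contrast was not split by height. The combined SMC-3 set of CA1200 overlapped 20.3% of the kept sites without HW04 SMC-3 and 94.2% of those in all 4 lists. The combined SMC-3 set of JK05 overlapped 82 kept sites (8.14%), of which 76 were in all 4 HW04 SMC-3 lists and 74 in the CA1200 SMC-3 set, and 4.17% of other peaks. The site at T27A8.2 was one of them, with an SMC-3 fold of 3.67 in JK05 beside 4.58 in CA1200.

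Membership in the CA1200 PQN-85 set differed by chromosome. Of the kept sites on I, II, III and IV, 81.8% to 84.6% were in that set, but 60.4% of those on V and 64.2% of those on X. Among kept sites with a fold of at least 3.18 the shares were 98.2%, 98.6%, 98.7% and 92.4% on I to IV, 72.7% on V and 65.9% on X. High-fold other peaks showed the same step, with 64.7% on V and 68.6% on X against 98.0% to 100% on I to IV. The JK05 and JK06 PQN-85 sets held 91.1% to 100% of the high-fold kept sites on every one of the 6 chromosomes, and the CA1200 SMC-3 set held 86.4% on V and 92.2% on X. The missing sites included the peaks at ZK380.2 and F31A3.3, both among the 10 highest. A site missing from the CA1200 set on V or X is therefore not read as one without PQN-85 in that strain.

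**Figure D4:**
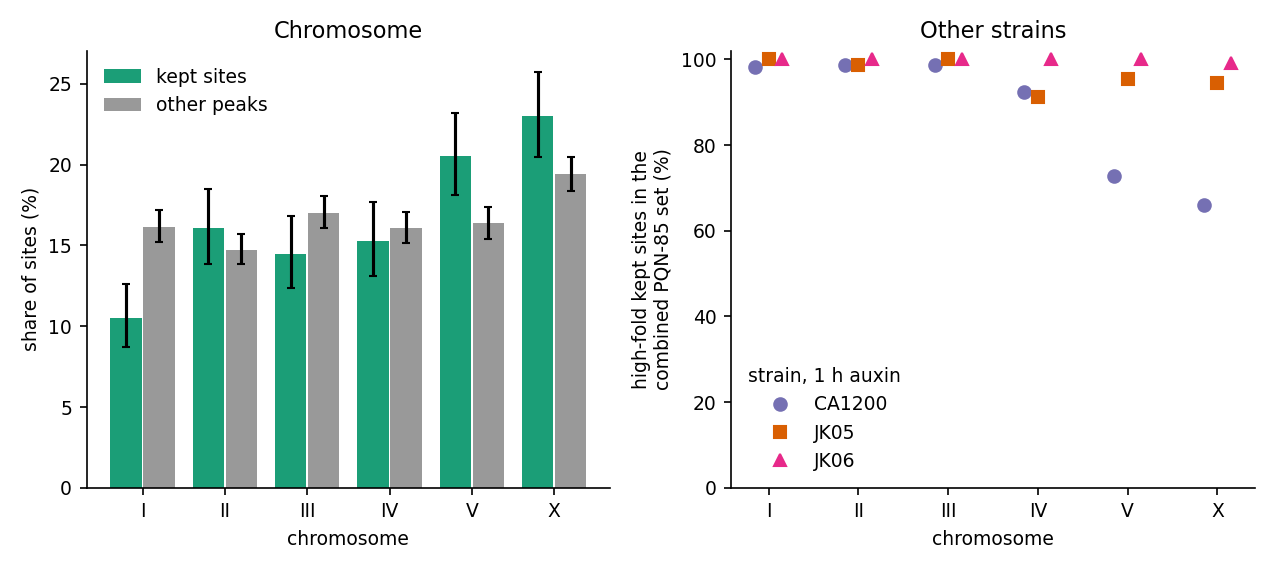
Left, share of kept sites (1007) and of other peaks (5546) on each chromosome (y axis, percent), with exact 95% binomial intervals that cover counting error only. Right, share of the high-fold kept sites (PQN-85 fold at least 3.18) found in the combined PQN-85 set of each strain, by chromosome; the CA1200 set drops to 72.7% on V and 65.9% on X, and the JK05 and JK06 sets do not.

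Kept sites lay on all 6 nuclear chromosomes and none on the mitochondrial genome, which held 7 other peaks. X held 23.0% of them (exact 95% interval 20.5 to 25.8) against 19.4% of other peaks (18.4 to 20.5), and V 20.6% (18.1 to 23.2) against 16.4% (15.4 to 17.4). Chromosome I held 10.5% (8.70 to 12.6) against 16.2% (15.2 to 17.2), and III 14.5% (12.4 to 16.8) against 17.0% (16.1 to 18.1). The X share depended on auxin replicate 2: with sites chosen without it, 20.6% lay on X. The intervals cover counting error and treat peaks as independent. Chromosome I sites had the largest share in all 4 SMC-3 lists (66.0%) and the smallest in none (5.66%), and their median auxin to no auxin ratio was the lowest at 0.671. On V 42.0% were in all 4 and 22.2% in none, with a median ratio of 0.793, and on X 51.3% and 17.7%, with a median ratio of 0.814.

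H4K20me1 peaks overlapped most kept sites on X, with 93.1% and 94.8% of the 232 without auxin and 93.5% and 96.6% with auxin. The other peaks on X had 90.8% to 92.6%. On the autosomes 13.2% and 21.2% of the 775 kept sites were overlapped without auxin and 18.2% and 28.1% with auxin, against 8.33% to 13.0% of autosomal other peaks. Replicate 2 was the higher in each condition. Over all chromosomes the share was 34.9% ± 4.63 (SD, n = 2) without auxin and 39.7% ± 5.90 (SD, n = 2) with auxin, a difference of 4.87 points smaller than the spread between replicates (two-sided exact permutation test, p = 0.667).

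Kept sites were mostly away from gene starts. Of the 1007 summits, 22.8% (exact 95% interval 20.3 to 25.6) lay within 500 bp of a start in the RNA tables, 25.9% lay elsewhere in a gene and 51.2% between genes. For other peaks the shares were 30.7%, 26.3% and 43.0%. The median distance to the nearest start was 1990 bp against 1438 bp, and 199 kept sites lay more than 5000 bp away. This order rested on auxin replicate 2: with sites chosen without it, 32.2% lay near a start against 27.2% of the remaining peaks. Sites without HW04 SMC-3 were near a start in 30.1% of cases, sites in 1 to 3 lists in 15.9% and sites in all 4 in 25.1%. For other peaks the order was different, with 18.0% at those in no SMC-3 list and 46.5% at those in all 4.

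The 230 kept sites near a start served 261 genes, which is 1.40% of the 18607 genes in the RNA tables. A further 2027 genes (10.9%) had their start at other peaks alone. Heat shock genes had the highest share among the lists: of 25 genes named hsp or hsf, 7 (28.0%) had their start at a kept site and 3 at other peaks alone. Ribosomal protein genes had 10 of 75 (13.3%) at kept sites and 48 at other peaks alone, and translation factors 4 of 32, all of them elongation factor genes (eef-1A.1, eef-1A.2, eef-1G and eef-2). Of 381 genes in the transcription factor list, 17 (4.46%) had a kept site, and 15 of these were nuclear hormone receptor genes, which make up 260 of the 381 (15 of 260 is 5.77%). The list also held daf-16, the FOXO transcription factor of the insulin pathway, whose site on I from 10749767 to 10750403 had folds of 4.44 and 7.64 without auxin and 4.57 and 2.98 with auxin. Oxidative phosphorylation had 2 of 33 (cox-5A and cox-5B), histones 1 of 57 (his-37) and collagens 1 of 162 (col-160). None of 17 muscle genes or 12 cohesin genes had a kept site at the start, and 4 and 5 of them had other peaks alone. These counts were not tested.

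**Figure D5:**
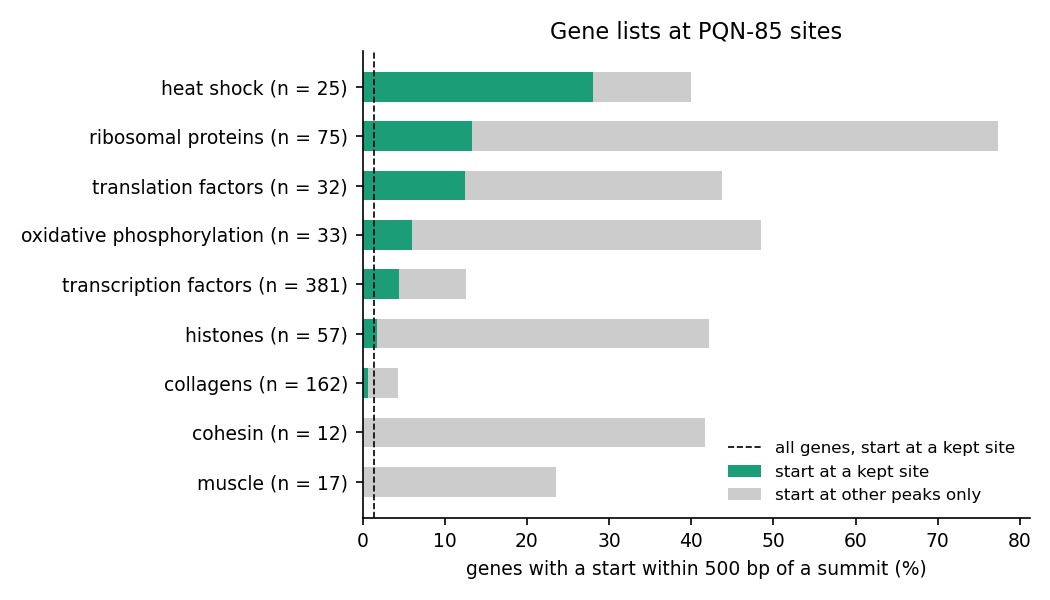
Share of the genes of each list (y axis, with the number in the RNA tables) whose start lies within 500 bp of a kept site's summit (green) or of other peaks alone (grey), in percent. The dashed line is the share of all genes with a kept site, 1.40%; heat shock genes reach 28.0% and ribosomal protein genes 13.3%.

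The heat shock sites included both small heat shock loci. A site 4534 bp wide on V from 9086581 to 9091114 had its summit upstream of both genes of the pair hsp-16.1 and hsp-16.48, with folds of 4.98 and 6.02 without auxin and 5.39 and 3.31 with auxin. A second, 2230 bp wide on V from 1804120 to 1806349, was likewise placed at hsp-16.2 and hsp-16.41, with 2.96 and 5.49 without auxin and 3.40 and 2.58 with auxin. The groups overlap at both. At hsp-1, the constitutive HSP70 gene, the site on IV from 17277713 to 17278960 had 6.44 and 7.07 without auxin and 5.43 and 3.33 with auxin. At hsp-110, an HSP110 gene, the site on III had 4.03 and 5.05 without auxin and 2.81 and 1.81 with auxin. Each auxin library was lower than each library without auxin at these 2. The seventh gene was hsp-3, of the endoplasmic reticulum HSP70 type. F44E5.4 and F44E5.5, a pair of HSP70 genes that the list rule does not name and that were added after their values were seen, shared a kept site of 5662 bp on II from 11756590 to 11762251. Its folds were 5.96 and 7.37 without auxin and 7.98 and 4.12 with auxin.

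RNA values for genes at kept sites come from the authors' deposited tables, which compare each depletion strain with CA1200 and share its 2 libraries. No RNA comparison of HW04 was used here. In the authors' deposited table of SMC-3 depletion, 260 of the 261 genes were listed and 252 had an adjusted p, of which 3 were below 0.05, 1 higher and 2 lower, where 0.686% of all 15316 genes were called. At an unadjusted p below 0.05 there were 36 (29 lower), or 13.8%, against 5.83% of all genes. At an adjusted p below 0.1 there were 7 of 252 (2.78%) against 1.13% of all genes. The median log2 fold change was -0.12, against -0.01 for all genes, and the median mean normalized count was 965 against 143. The called genes were F45D11.16, vig-1 and Y39E4B.6.

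F45D11.16 rose by 2.12 ± 0.34 (log2, standard error, adjusted p = 4.54e-07 in the authors' deposited table), and its kept site on II from 1018067 to 1018564 had no HW04 SMC-3 peak. Y39E4B.6 fell by 1.24 ± 0.28 (adjusted p = 0.00357 in the authors' deposited table) and had a site 4023 bp wide on III from 13068034 to 13072056 in all 4 SMC-3 lists. The gene vig-1, for a component of the RNA-induced silencing complex, fell by 0.92 ± 0.25 (adjusted p = 0.0339 in the authors' deposited table). Its site on II from 1320360 to 1320884 had folds of 3.72 and 4.84 without auxin and 3.25 and 1.96 with auxin.

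The 7 heat shock genes at kept sites all had log2 fold changes below 0 in the authors' deposited table of SMC-3 depletion, with a median of -1.01, and none passed the adjusted test. The median of all genes in that list was -0.39. Values were -2.44 ± 0.84 (log2, standard error) for hsp-16.1, -1.30 ± 0.49 for hsp-16.2, -1.16 ± 0.49 for hsp-16.41 and -1.01 ± 0.31 for hsp-110, with adjusted p from 0.0999 to 0.457 in the authors' deposited table. The remaining genes were nearer to no change for their error, with -0.57 ± 0.35 for hsp-1, -0.50 ± 0.98 for hsp-16.48 and -0.29 ± 0.28 for hsp-3. Mean normalized counts were low for hsp-16.1 (50.1) and hsp-16.48 (15.1). F44E5.5 had -1.94 ± 0.55 (adjusted p = 0.0523 in the authors' deposited table). The small heat shock genes and the F44E5 pair have near-identical copies, so how reads were shared between copies makes their values uncertain. The 10 ribosomal protein genes had log2 fold changes below 0 in 10 of 10, with a median of -0.62 beside -0.61 for all genes of that list, and none passed the adjusted test. In the authors' deposited table of WAPL-1 depletion (the authors' DESeq2 fit) none of the 260 listed genes was called, as for all 18308 genes (0% called). At an unadjusted p below 0.05 it was 0 of 260 where 0.399% of all genes passed. The median log2 fold change was -0.01 beside 0.05 for all genes. The 7 heat shock genes had a median of 0.64 beside 0.365 for all genes of that list. Their values ran from -0.25 ± 0.89 (hsp-16.1) to 1.39 ± 1.01 (hsp-16.48).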

How the data were processed

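Peak lists came from ChIP-seq of whole worms and the gene values from RNA-seq. For ChIP-seq the submitters' processing notes name MACS2 2.1.1 and MACS3 beside Bowtie2 2.4.2. For the authors' RNA-seq they name DESeq2 1.30.0, with HTSeq 0.13.5 and HISAT2 2.2.1. Each deposited peak has a score (10 times its −log10 q as a whole number), a summit fold (ChIP to input ratio), a −log10 p and a −log10 q, all computed by the authors. The deposited RNA tables hold the authors' log2 fold change with its standard error, Wald statistic (a score), mean normalized count (also held as a score), p-value and adjusted p-value, per the file headers. Sequencing depth is unknown.

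Overlaps of at least 1 bp were computed with Python 3.11.15, pandas 2.3.3, numpy 2.4.6 and scipy 1.17.1, and the code was tested on simulated intervals. Where several peaks of a list overlapped a site, the one with the highest fold was used. Gene starts are those of the RNA tables, and RefSeq symbols (WBcel235) were found for 18230 of 18607 genes. No build is stated for HW04: summits towards the end of each chromosome lay within 13 bp (median) of the CA1200 SMC-3 summits, which the labels place on ce10, and gene starts were within 28.3 bp by strand midpoint. Named sites were the 10 highest by mean fold, the highest of each chromosome, the 5 widest, the 5 highest without HW04 SMC-3, and the 5 with the largest and smallest auxin to no auxin ratios, with called genes and cohesin genes at kept sites. Members and lists were chosen with earlier results of these data known. Sequence features were not analysed here, since no genome was used. The combined sets were assigned by the target and strain in their own names, since some of them were attached to samples of other groups. Exact tests permuted libraries or flipped signs of their differences; intervals are Clopper-Pearson (95%). The microRNA list held 1 gene in the tables, with no kept site, and snRNA and tRNA genes were not in the tables by name.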

Additional observations from a re-analysis of the deposited data

How the results depend on the processing

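The number of kept sites was 713 with at least 50% of each peak covered, 971 by summit, 1020 when taken from replicate 2 without auxin and 562 when −log10 q of at least 10 was required in all 4 lists. Leaving out 1 PQN-85 library gave 1020 to 3010, the highest without auxin replicate 2. The SMC-3 difference between libraries labelled auxin and no auxin stayed between 15.5 and 19.1 points without any 1 library, was -17.3 points by the condition in the peak names, and kept its direction under the other overlaps and thresholds tried. The difference in SMC-3 share between kept sites and other peaks was 10.0 to 13.0 points without any 1 library and 10.3 points with the 2 libraries labelled no auxin averaged, and exact p was then 0.0625, the smallest that 5 values allow. It was -21.1 points with the other peaks alone restricted to high fold, a restriction on 1 side that itself lowers the difference and is not read as a test. It was -2.30 and -4.77 points with both groups restricted to high and to low fold. The H4K20me1 difference was 0.695 to 9.04 points without any 1 library. With a replicate block (differences paired by number) the SMC-3 and H4K20me1 differences were the same 17.3 and 4.87 points with exact p = 0.5, the smallest that 2 pairs allow. The numbers are not stated to pair samples, and the correlation of replicate differences over sites was 0.108 for SMC-3 and 0.214 for H4K20me1. The share of summits near a gene start was 15.1% at 250 bp, 32.7% at 1000 bp, against 20.5% and 41.7% of other peaks, and 32.2% with sites chosen without auxin replicate 2. The X share ran from 20.6% to 22.9% without any 1 PQN-85 library, the lowest without auxin replicate 2. Genes called in SMC-3 depletion numbered 5 of 372 at 1000 bp (1.34%, where 0.686% of all genes were called) and 7 of 252 at an adjusted p below 0.1 (2.78% against 1.13% of all genes). The cause of these shifts was not tested, and depth, which is unknown, limits every statement that a peak is missing.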
